A study of Homo sapiens with 8 samples.

Results

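Box C/D snoRNA genes were taken as every row of the gene table whose gene name begins with SNORD followed by a digit. This rule used no measured value and gave 67 of 13471 rows. The study pulled down the RNA- and DNA-binding nuclear protein hnRNP U (SAF-A) from hTERT-RPE1 cells and sequenced the RNA that came with it. hTERT-RPE1 is a line of human retinal pigment epithelium immortalized with telomerase, and its cells carry no other modification named in the labels. There were 4 groups of 2 libraries each. Interphase cells had spent 24 h in 2 mM thymidine, which stalls DNA replication, and were sequenced either without IP (immunoprecipitation) or after IP with an antibody to hnRNP U. Mitotic cells had spent 24 h in 2 mM thymidine, 6 h in release and a night in STLC, an inhibitor of the spindle motor Eg5, and were likewise sequenced without IP and after the IP. All lysates were cleared by centrifugation, and strand-specific libraries were prepared once ribosomal RNA had been removed. No pull-down with a control antibody is part of these comparisons, so carry-over on the beads and binding to hnRNP U cannot be told apart. The labels number the libraries of a group 1 and 2 without naming separate cultures, so p-values measure the spread between these libraries, which may be technical.

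Box C/D snoRNAs are short nucleolar RNAs that hold the methyltransferase fibrillarin and the proteins NOP56, NOP58 and SNU13 in a particle. Their guide stretches pair with a target RNA and place a methyl group on the ribose of one of its nucleotides, most often in ribosomal RNA and in some cases in the spliceosomal U6 RNA or a tRNA. A few, such as U3, U8, U13, U14 and U22, take part in cutting or shaping the ribosomal precursor. In human cells most are released from introns of host genes, many of which encode ribosomal proteins or are noncoding RNAs such as GAS5 and the SNHG genes. Nucleoli are taken apart in mitosis, and synthesis of ribosomal RNA pauses there.

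The 67 genes fall into roles taken from their known targets. Counting each gene once, 7 are rRNA processing snoRNAs (SNORD3A and SNORD3C for U3, SNORD118 for U8, SNORD13 for U13, SNORD14B and SNORD14C for U14, SNORD22 for U22), 5 guide methylation of U6 (SNORD8, SNORD9, SNORD10, SNORD67 and SNORD94), and SNORD97 guides methylation of a methionine tRNA. A further 10 come from imprinted clusters, namely SNORD113-4, 6 copies of SNORD114 on chromosome 14 and 3 copies of SNORD116 on chromosome 15; these copies have no ribosomal RNA target that is well established. The remaining 44 are mostly ribosomal RNA guides.

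The sequences of the genes that stood furthest apart in the comparisons follow, taken from the GENCODE 29 transcripts (GRCh38, the assembly the file's hg38 loci refer to), 5′ to 3′ and as DNA letters, with box C (TGATGA) and box D (CTGA) in capitals where a search found them. The first 4 had the largest higher values in mitosis. SNORD102 and SNORD17 had the lowest differences in IP effect between the phases, SNORD116-14 and SNORD116-27 were lower in mitosis, SNORD114-14 was higher after IP in both phases, and SNORD97 was far lower after IP.
SNORD99, chr1:28578749-28578822, minus strand: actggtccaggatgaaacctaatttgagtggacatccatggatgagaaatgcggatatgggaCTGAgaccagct
SNORD21, chr1:92837289-92837383, plus strand: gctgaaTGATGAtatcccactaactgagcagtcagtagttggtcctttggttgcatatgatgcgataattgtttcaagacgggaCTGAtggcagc
SNORD110, chr20:2654212-2654286, plus strand: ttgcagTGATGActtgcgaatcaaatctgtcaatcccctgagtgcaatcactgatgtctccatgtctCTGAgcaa
SNORD36A, chr9:133350456-133350528, plus strand: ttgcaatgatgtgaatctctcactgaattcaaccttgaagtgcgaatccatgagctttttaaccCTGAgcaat
SNORD102, chr13:27255064-27255135, plus strand: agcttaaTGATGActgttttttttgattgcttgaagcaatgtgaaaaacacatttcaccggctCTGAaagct
SNORD17, chr20:17962710-17962946, minus strand: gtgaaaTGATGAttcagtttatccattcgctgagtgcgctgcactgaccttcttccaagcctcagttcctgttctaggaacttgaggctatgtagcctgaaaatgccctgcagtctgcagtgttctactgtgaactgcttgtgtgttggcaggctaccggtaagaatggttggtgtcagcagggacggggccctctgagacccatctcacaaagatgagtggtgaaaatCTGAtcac
SNORD116-14, chr15:25080142-25080233, plus strand: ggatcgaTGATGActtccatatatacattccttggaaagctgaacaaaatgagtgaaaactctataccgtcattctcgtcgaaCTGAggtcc
SNORD116-27, chr15:25101575-25101666, plus strand: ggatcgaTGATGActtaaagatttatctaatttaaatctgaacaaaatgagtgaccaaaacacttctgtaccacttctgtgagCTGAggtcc
SNORD114-14, chr14:100972103-100972177, plus strand: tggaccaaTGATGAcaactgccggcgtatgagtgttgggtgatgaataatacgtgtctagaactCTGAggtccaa
SNORD97, chr11:10801467-10801608, minus strand: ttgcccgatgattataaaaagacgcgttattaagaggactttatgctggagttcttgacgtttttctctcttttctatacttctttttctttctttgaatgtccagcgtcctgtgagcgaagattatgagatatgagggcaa

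A sequence was found for 60 of the 67 genes, all except SNORD47, SNORD50A, SNORD74, SNORD76, SNORD77, SNORD79 and SNORD80. On the strand of the RNA, the letters CTGA lay in the last 14 nt of 59 of the 60 (98.3%), the exception being SNORD97. The letters TGATGA lay in the first 20 nt of 43 (71.7%). Among 149 transcripts of H/ACA snoRNAs, the other large class, 1 (0.671%) had the box C letters in that window and 5 (3.36%) the box D letters. A match describes letters only. SNORD3A and SNORD3C were identical at 216 of 217 positions (99.5%) and SNORD116-14 and SNORD116-21 at 90 of 92 (97.8%), so reads of these pairs may have been divided or placed on either copy. SNORD116-14 and SNORD116-27 shared 70 of 92 positions (76.1%), and the 6 SNORD114 copies were between 72 and 91.7% identical.

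The file gives each gene a genomic interval (its locus), and for most of these genes that interval is far longer than the snoRNA. It was at most 300 bp for 12 genes, above 300 and up to 1000 bp for 2 and above 1000 bp for 53, with a median of 4844 bp. The short ones were 71 bp for SNORD114-1, SNORD114-10 and SNORD114-28, 74 bp for SNORD113-4 and SNORD114-3, 94 bp for SNORD116-14, SNORD116-21 and SNORD116-27, 104 bp for SNORD13, 114 bp for SNORD89, and 217 bp for SNORD3A and SNORD3C. SNORD104 had 340 bp and SNORD60 had 577 bp. The others took the interval of a larger transcribed unit, and 54 of the 67 genes shared their interval with at least 1 other row of the table.

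Genes of one host carried the same interval. It measured 4740 bp for the GAS5 set (SNORD47, SNORD74, SNORD76, SNORD77, SNORD79 and SNORD80), 3901 bp for the SNHG1 set (SNORD22, SNORD27 and SNORD28) and 43358 bp for the ZFAS1 set (SNORD12, SNORD12B and SNORD12C). In ribosomal protein genes it was 2996 bp for SNORD100 and SNORD101 (RPS12), 4754 bp for SNORD32A and SNORD33 (RPL13A), 22811 bp for SNORD15A and SNORD15B (RPS3), 11388 bp for SNORD58B and SNORD58C (RPL17) and 6784 bp for SNORD83A and SNORD83B (RPL3). In other hosts it was 8897 bp for SNORD45A, SNORD45B and SNORD45C (RABGGTB), 53205 bp for SNORD49A and SNORD65 (LRRC75A-AS1), 52105 bp for SNORD8 and SNORD9 (CHD8) and 18999 bp for SNORD114-14 and SNORD114-21. Among the genes whose interval no other of the 67 had, intervals of up to 5011 bp belonged to SNORD50A (1727), SNORD36A (3212), SNORD14B (3282), SNORD118 (3418), SNORD14C (4844) and SNORD102 (5011). Intervals up to 11990 bp belonged to SNORD16 (5541), SNORD110 (5862), SNORD4A (6950), SNORD88C (7161), SNORD1C (7585) and SNORD97 (11990). The longest belonged to SNORD10 (17015), SNORD84 (17887), SNORD99 (28838), SNORD94 (35976), SNORD17 (49527), SNORD111 (53881), SNORD67 (102775) and SNORD21 (129486).

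The values themselves followed the length of the snoRNA and not that of the interval. FPKM scales fragments by transcript length and by mapped fragments of the library, so a gene with few fragments takes values that are whole multiples of what 1 fragment adds. For 62 of the 67 genes all 8 values were such multiples (within 0.03 of a whole number, largest deviation 0.018), and 50 of the 55 genes with a locus above 300 bp were among them. In interphase without IP, replicate 1, a fragment added 19.7 FPKM to SNORD114-1 (RefSeq length 71 nt), 5.13 FPKM to SNORD116-14 (94 nt) and 0.501 FPKM to SNORD3A (217 nt). That is a 39.4-fold span for a 3.06-fold difference in length. FPKM levels of snoRNAs of unequal length are thus not compared here, except to pick the 5 genes with the highest mean FPKM. That ranking depends on length and is not one of abundance: SNORD114-21, in it, had 1116 fragments in all, and SNORD3A, outside it, had 9720. SNORD77 and SNORD80 (RefSeq lengths 70 and 71 nt) took steps 3.02 and 3.00 times that of a 71-nt gene. The length behind their FPKM values is not stated. Their fragment numbers could be 3 times those given, or another length could have been used, and neither was tested. No whole fragments were recovered for SNORD21, SNORD33, SNORD58B, SNORD65 and SNORD118. Reads of the host RNA that fall inside the snoRNA's own length would still be counted, and their share was not tested.

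**Figure D1:**
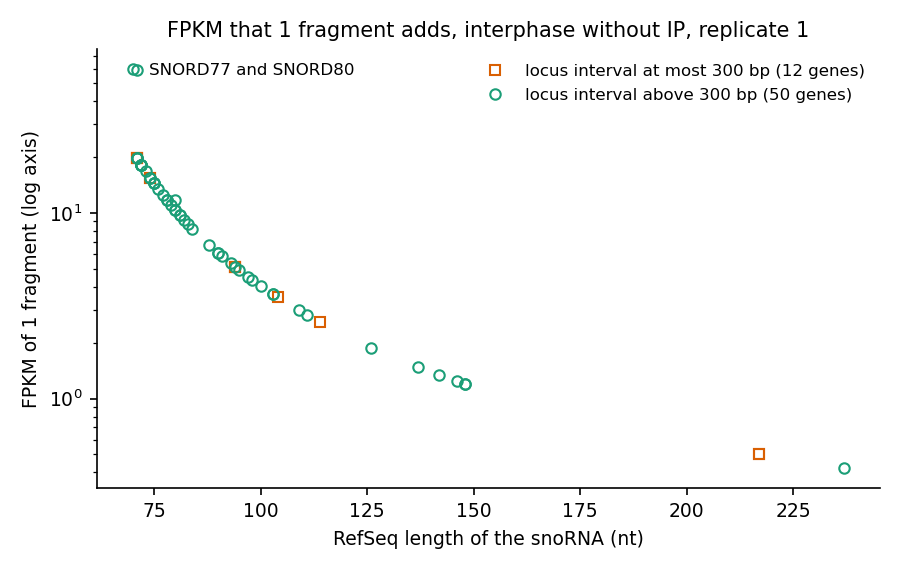
FPKM added by 1 fragment (log axis) against RefSeq length in nt, for the 62 genes with whole fragments, in interphase without IP, replicate 1. Squares (12 genes with a short locus) and circles (50 genes with a long one) lie on one falling curve that passes 19.7 FPKM at 71 nt and 0.501 FPKM at 217 nt, with SNORD77 and SNORD80 above it.

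The fragment numbers were small. The table holds no 0, so a gene is present only with at least 1 fragment in every library. The median gene of the 62 had 9 and 8 fragments in interphase without IP, 10 and 4.5 in interphase with IP, 37.5 and 45.5 in mitosis without IP, and 13.5 and 19 in mitosis with IP. In 47 genes some library had fewer than 10 fragments, and in 17 some library had 1. The libraries' depths, read from the value of 1 fragment, were between 0.639 and 1.19 times that of interphase without IP, replicate 1. The replicates of these genes also differed more than those of other rows: the median residual SD was 0.665 (log2) against 0.121 for 739 other rows of like level. Because limma borrows the spread of rows at the same level, counts of these genes that passed are followed by the count obtained when the 183 rows with a RefSeq length of at most 300 nt had a spread of their own. Counts of pairs with a host gene use the first fit alone. Cell cycle markers separated the phases as labelled: the summed FPKM of 6 mitotic genes (CCNB1, PLK1, AURKA, CDC20, CENPF and TOP2A) was 142 to 146.5 in interphase and 562 to 595 in mitosis without IP. Of 11 retinal pigment epithelium markers 5 were in the table (KRT8, KRT18, MITF, OTX2 and PMEL, summed FPKM 67.1 to 141), and RPE65, BEST1, RLBP1, TYR, TTR and SERPINF1 were not among its rows. By gene, the libraries had 19 to 58.9 FPKM for KRT8, 18.55 to 79.2 for KRT18 and 7.06 to 33.2 for MITF. OTX2 had 3.33 to 22.2 FPKM, and PMEL only 0.032 to 0.144 FPKM. Of the markers of other cells, 2 of 5 fibroblast genes, 1 of 2 leukocyte genes and 0 of 3 endothelial genes were in the table, with sums of at most 10.5 FPKM and 12.2 FPKM for the first 2 lists.

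Without IP, box C/D snoRNAs were higher in mitosis than in interphase. Of the 67 genes 39 rose (58.2%, against 26.2% of all rows) and 3 fell (4.48%, against 25.5% of all rows), by limma at an adjusted p below 0.05. The median log2 fold change was 2.02 on the log2(FPKM + 1) scale, beside -0.002 over all 13471 rows, and 59 genes had values above 0. In 52 genes both mitotic libraries exceeded both interphase ones (39.5% of all rows did so), and in 5 both were lower (39.4% of all rows). With a spread of their own for short RNAs, 31 rose and 0 fell. These are bulk lysates and FPKM is a share of a library, so more RNA per cell, more cells with the RNA and less of other RNAs cannot be told apart. Release and STLC were given only to the mitotic cells, so phase and treatment cannot be told apart either. Whether clearing the lysates kept the same part of these RNAs in both phases was not tested.

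**Figure D2:**
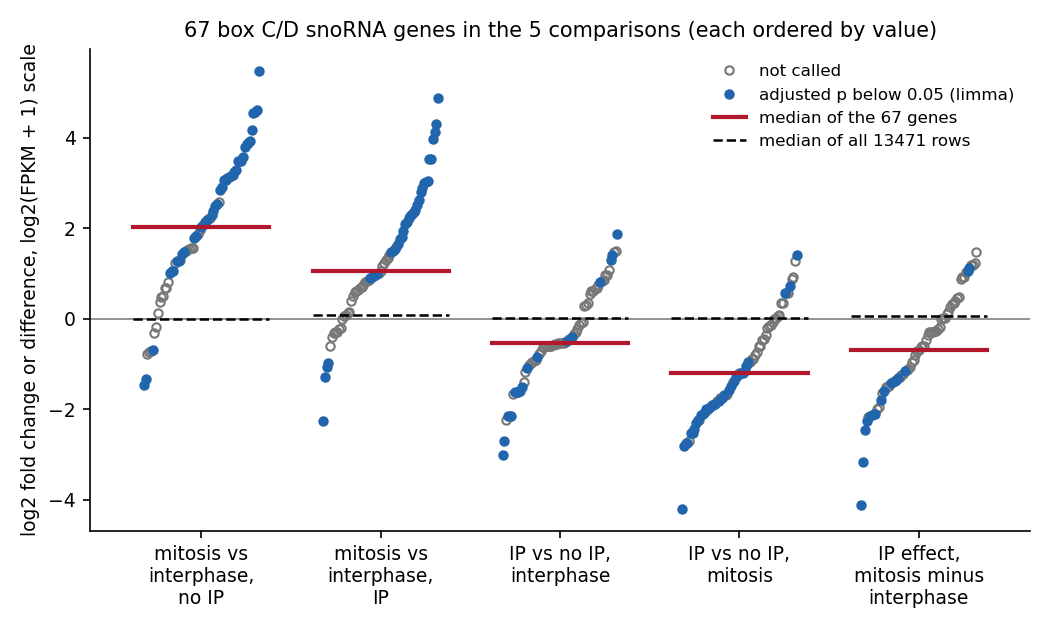
Log2 fold change (or difference of fold changes) of the 67 genes in the 5 comparisons, on the log2(FPKM + 1) scale; filled points passed the test, the red line is the median of the 67 genes and the dashed line that of all 13471 rows. The points of mitosis against interphase without IP centre on 2.02, and those of IP against no IP in mitosis on -1.21.

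The largest rise was that of SNORD99, a large-subunit rRNA guide in an intron of SNHG12. Its values were 41.5 and 12.4 FPKM in interphase (4 and 1 fragments) and 1167 and 956 FPKM in mitosis (97 and 100 fragments). The mitotic libraries lay far above both interphase ones, with a log2 fold change of 5.47 (SE 0.46, limma adjusted p = 4.84e-05). The pooled fragments, scaled for depth, rose 37.3-fold, with a 95% counting interval of 15.7 to 116. Such intervals are exact (Clopper-Pearson) and cover counting error only, since reads are not independent molecules.

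SNORD21, a guide of the large subunit in RPL5, went from 9.84 and 5.90 to 234 and 191 FPKM (log2 fold change 4.62, SE 0.26, adjusted p = 5.58e-06). A fragment added 4.92 FPKM to SNORD83A, also of 95 nt, in interphase without IP, replicate 1. The interphase values of SNORD21 thus rest on few fragments, though no whole numbers were recovered for it. SNORD110, a small-subunit guide in an intron of NOP56, went from 57.7 and 17.2 FPKM (4 and 1 fragments) to 771 and 786 FPKM (46 and 59 fragments). Its log2 fold change was 4.58 (SE 0.52, adjusted p = 0.000208). In all 4 of the largest rises both mitotic libraries lay far above both interphase ones. SNORD36A, a guide hosted by RPL7A, had 90.7 and 43.2 FPKM in interphase and 1707 and 1289 FPKM in mitosis (4.54, SE 0.35, adjusted p = 3.16e-05), a 21.4-fold rise in pooled fragments with an interval of 10.1 to 54.0.

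**Figure D3:**
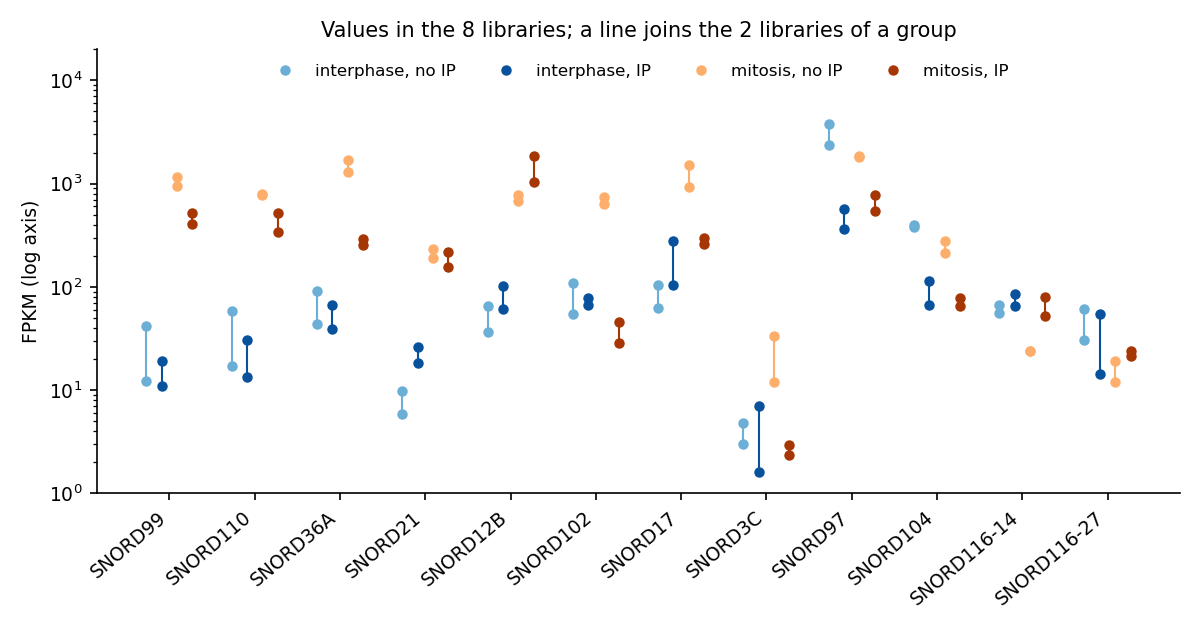
FPKM (log axis) of 12 named genes in the 8 libraries; each point is a library and a line joins the 2 of a group. SNORD99, SNORD110, SNORD36A and SNORD21 sit highest in mitosis without IP, SNORD102 falls from 632 and 737 FPKM there to 28.4 and 45.8 FPKM after IP, and SNORD116-14 is lowest in mitosis without IP.

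Only 3 genes fell. SNORD116-14, from the imprinted cluster linked to Prader-Willi syndrome, had 56.4 and 67.2 FPKM in interphase (11 and 11 fragments) and 23.8 and 23.7 FPKM in mitosis (4 and 5 fragments). Its groups did not overlap, and the log2 fold change was -1.34 (SE 0.20, adjusted p = 0.000868; 0.0565 with the spread of short RNAs). SNORD116-27 went from 61.5 and 30.6 to 11.9 and 18.9 FPKM (-1.47, SE 0.54, adjusted p = 0.0474; 0.124 with that spread). The call for SNORD116-27 was lost without interphase without IP replicate 1 (-0.98, adjusted p = 0.252), without either mitotic library of this comparison (adjusted p = 0.202 and 0.0629) and without either mitotic IP library (adjusted p = 0.0571 and 0.0565). SNORD116-21, almost identical to SNORD116-14, had 66.7 and 110.0 and then 47.6 and 52.1 FPKM and did not pass (-0.77, adjusted p = 0.0699). So 2 of the 3 SNORD116 copies passed as lower (25.5% of all rows), with none higher and a median of -1.34. With the wider spread none passed. SNORD104, a large-subunit guide, had 383 and 395 FPKM and then 277 and 210.4 FPKM, a log2 fold change of -0.69 (adjusted p = 0.045). That call was lost with the spread of short RNAs (adjusted p = 0.307), under quantile normalization (adjusted p = 0.121) and, among single libraries left out, without either interphase library (adjusted p = 0.121 and 0.141), mitosis without IP replicate 2 (adjusted p = 0.225) or mitosis IP replicate 1 (adjusted p = 0.0503).

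Of the 7 copies of SNORD113 and SNORD114, from the chromosome 14 imprinted cluster, 4 rose and none fell (26.2% and 25.5% of all rows). Their median was 1.55, and 3 rose with the spread of short RNAs. SNORD114-28 rose from 1 and 1 fragments to 14 and 20 fragments, or from 19.7 and 23.5 to 320.5 and 364 FPKM (log2 fold change 3.93, SE 0.22, adjusted p = 5.86e-06). With 2 interphase fragments in all, the pooled ratio was 16.1 with an interval of 4.12 to 138. SNORD114-1 had 138 and 305 FPKM and then 1007 and 855 FPKM (2.17, adjusted p = 0.00126), and SNORD114-3 had 77.6 and 111 and then 307 and 473 FPKM (2.02, adjusted p = 0.00537). SNORD114-14 also rose (1.27, adjusted p = 0.00104; 0.0634 with the spread of short RNAs). SNORD113-4 (0.68), SNORD114-10 (1.55) and SNORD114-21 (-0.33) did not pass, and in each of the 3 the groups overlapped. SNORD114-21 had 2483 and 1832 FPKM in interphase and 2449 and 1183 FPKM in mitosis. The difference between the 2 clusters was not tested.

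All 7 rRNA processing snoRNAs had positive log2 fold changes, with a median of 1.96. Of the 7, 2 passed the test (2 with the spread of short RNAs), where 26.2% of all rows were higher. SNORD14B (a U14 copy, needed for maturation of the small subunit) rose from 11.7 and 13.9 to 67.8 and 64.7 FPKM, or 2 and 2 fragments to 10 and 12 (2.29, SE 0.24, adjusted p = 0.000123). SNORD3C, a U3 copy, rose from 3.01 and 4.78 to 33.2 and 12.02 FPKM (2.13, SE 0.54, adjusted p = 0.0103). The near-identical SNORD3A had 147 and 1219 FPKM in interphase and 1520.0 and 712 FPKM in mitosis (1.29, adjusted p = 0.208). The interphase libraries of SNORD3A therefore spanned the lower mitotic one.

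U22 and U8 showed large differences with unequal replicates. SNORD22, the U22 RNA of SNHG1 with the highest mean FPKM of the 67 genes, had 1888 and 2328 FPKM (1002 and 1037 fragments) in interphase and 14745 and 6298 FPKM (6739 and 3622 fragments) in mitosis. Both mitotic libraries were higher and the pooled ratio was 4.81 (interval 4.58 to 5.04), but the log2 fold change of 2.20 had an SE of 0.95 and did not pass (adjusted p = 0.0812). SNORD118, the U8 RNA needed for the large subunit, had 602 and 473 FPKM and then 3467 and 1252 FPKM (1.96, adjusted p = 0.168). SNORD13, the U13 RNA that pairs with the small-subunit rRNA, had 214 and 121 and then 743 and 470.4 FPKM (1.87, adjusted p = 0.0834). SNORD14C (a U14 copy in HSPA8) had 228 and 112 and then 437 and 149 FPKM (0.67, adjusted p = 0.715).

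Among the 5 U6 guides 2 rose and none fell (26.2% and 25.5% of all rows), with all 5 values above 0 and a median of 1.42. With the spread of short RNAs 0 passed. SNORD10, one of the 5 genes with the highest mean FPKM, had 767 and 705 FPKM in interphase and 3874 and 2436 FPKM in mitosis (2.06, adjusted p = 0.0651). SNORD97, the tRNA guide, was 1 of the 8 genes with a value below 0: 2371 and 3760.3 FPKM in interphase and 1837 and 1790.1 FPKM in mitosis (-0.72, SE 0.37, adjusted p = 0.139). SNORD4A, a small-subunit guide in RPL23A and also 1 of those 5 genes by mean FPKM, rose from 671 and 714 to 3919 and 3818 FPKM with close replicates (2.48, SE 0.39, adjusted p = 0.00101). Of the 44 remaining guides 31 rose and 1 fell (26.2% and 25.5% of all rows), with a median of 2.71. With the spread of short RNAs 26 rose and 0 fell.

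The 12 genes whose locus is at most 300 bp, where the interval is close to the length of the snoRNA, were 5 higher and 2 lower with a median of 1.69 (4 and 0 with the spread of short RNAs). The 55 with a longer locus were 34 higher and 1 lower with a median of 2.23 (27 and 0 with that spread). Over all rows 26.2% were higher and 25.5% lower. SNORD89, the remaining gene with a short locus, rose from 69.5 and 46.01 to 289.9 and 143 FPKM (1.83, adjusted p = 0.0397; 0.0848 with the spread of short RNAs). The 104 rows of H/ACA snoRNAs and scaRNAs (guides of pseudouridine and their Cajal body relatives) were measured in the same libraries: 47 rose, 2 fell and their median was 1.30, and with that spread 30 rose and 0 fell. The higher values in mitosis thus appeared in both classes, and the difference between the classes was not tested.

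For 60 of the 67 genes the table also holds a gene whose annotated span contains the snoRNA, on its strand where that is known. This gene was taken as the host, 35 hosts in all, and release from its introns was not tested (SNORD118 was paired with TMEM107 in this way). Without IP, 7 of the 35 hosts were higher in mitosis and 15 were lower (26.2% and 25.5% of all rows), and the median was -0.35 over the 35 hosts and 2.19 over the 60 snoRNAs. The snoRNA had the higher log2 fold change in 53 of 60 pairs, with a median difference of 2.34. In 17 pairs the snoRNA rose while the host fell, and in 9 both rose. Spearman's rho between the 2 sets of fold changes was -0.26 over the 60 pairs, which share libraries and, within a set, hosts.

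SNHG12, host of SNORD99, fell from 13.9 and 11.7 to 5.92 and 4.23 FPKM (-1.20, SE 0.26, adjusted p = 0.0054) while SNORD99 rose. The ZFAS1 set showed the same opposition: ZFAS1 fell from 327 and 405 to 235 and 251 FPKM (-0.58, adjusted p = 0.0158), and SNORD12, SNORD12B and SNORD12C rose by 3.50, 3.88 and 3.79. GAS5 fell by 0.49 (adjusted p = 0.0122), and 4 of its 6 snoRNAs rose (4 also with the spread of short RNAs): SNORD47 from 138 and 149.6 to 1209.9 and 1379 FPKM, and SNORD74, SNORD77 and SNORD80 by 3.07, 3.48 and 3.11. SNORD79 (1.49) and SNORD76 (0.38) of GAS5 did not pass. Over all rows 26.2% were higher. RPL13A fell by 1.51 (adjusted p = 0.000147), with SNORD32A at -0.19 and SNORD33 at 2.23, neither of which passed. RPL7A fell by 0.50 (adjusted p = 0.0346) beside the rise of SNORD36A.

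A few hosts rose. SNHG1 rose by 0.35 (adjusted p = 0.0117), and of its snoRNAs SNORD28 (3.18) and SNORD27 (1.79) rose while SNORD22 is given above. HSPA8 rose by 1.43 (adjusted p = 0.000282), more than its SNORD14C (0.67). SNHG5 fell by 0.33 (adjusted p = 0.0481) and its SNORD50A rose by 1.06 (adjusted p = 0.0338; 0.164 with the spread of short RNAs). NOP56, host of SNORD110 and itself a protein of the particle, did not pass (0.07, adjusted p = 0.573), nor did EIF4A1, host of SNORD10 (0.03, adjusted p = 0.851). Over classes of host, 12 of 18 snoRNAs in ribosomal protein genes rose and 0 fell (11 and 0 with the spread of short RNAs). In noncoding hosts 14 of 18 rose and 0 fell (12 and 0 with that spread), beside 26.2% and 25.5% of all rows. One host value is doubtful: the RPL21 row, host of SNORD102, lay between 0.140 and 1.00 FPKM in all libraries.

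**Figure D4:**
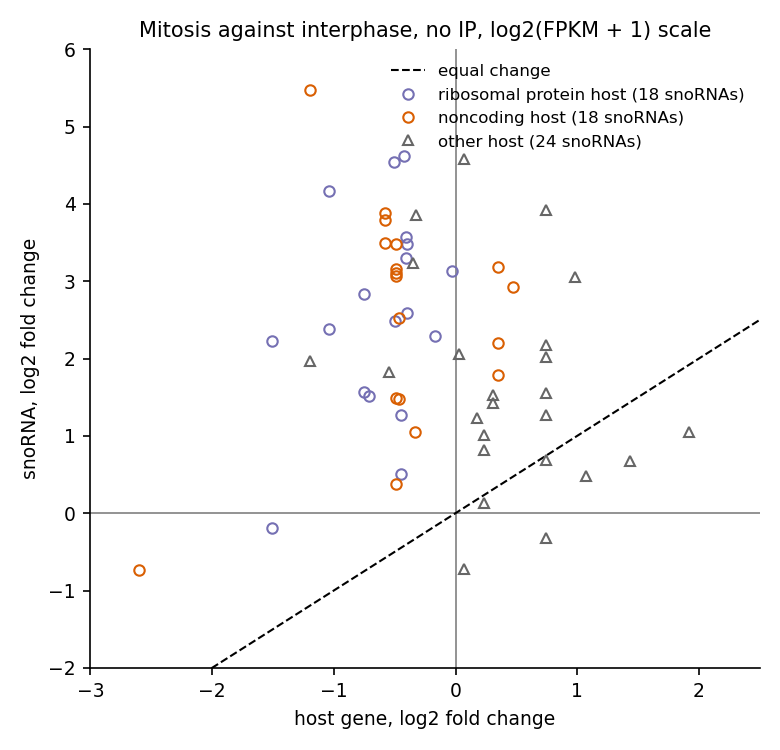
Log2 fold change of mitosis against interphase without IP, snoRNA (vertical axis) against its host gene (horizontal axis), on the log2(FPKM + 1) scale; each symbol is one of 60 snoRNAs and the dashed line marks equal change. Of the 60 symbols 53 lie above the line, and most hosts of ribosomal protein genes lie left of 0.

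In interphase, IP against no IP gave fewer calls than the background. Of the 67 genes 4 were higher after IP (5.97%, against 37.6% of all rows) and 13 lower (19.4%, against 37% of all rows), with a median of -0.54 beside 0.017 over all rows. The libraries did not overlap in 9 genes that were higher after IP (44.5% of all rows) and 16 that were lower (42.8%). With the spread of short RNAs 2 were higher and 7 lower. Quantile normalization gave 12 higher and 11 lower, and centring each library on its median, which moved the median of all rows from 0.017 to 0.142, gave 6 and 10. The median of -0.54 became 0.016 without interphase IP replicate 2, and the pairs of like-numbered libraries had medians of 0.026 and -0.565. Of the 104 rows of H/ACA snoRNAs and scaRNAs 0 were higher and 43 lower after IP, with a median of -1.12 (0 and 30 with the spread of short RNAs).

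The gene with the largest rise after IP was SNORD114-14. It had 139.7 and 148 FPKM without IP (9 and 8 fragments) and 546 and 514 FPKM with IP (38 and 31 fragments). Both IP libraries were well above both others (log2 fold change 1.87, SE 0.20, adjusted p = 3.09e-05; 0.00824 with the spread of short RNAs). Its neighbour SNORD114-21 had 2483 and 1832 and then 6607 and 5365 FPKM, also without overlap, but did not pass (1.48, SE 0.76, adjusted p = 0.108). SNORD21 rose from 9.84 and 5.90 to 18.2 and 26.3 FPKM (1.41, adjusted p = 0.000946, or 0.0406 with that spread). These SNORD21 values rest on few fragments, and no counting interval was available for them. SNORD14B rose from 2 and 2 fragments to 8 and 4 (1.30, adjusted p = 0.000876; 0.0529 with that spread), a pooled ratio of 2.74 with an interval of 0.829 to 11.6 that includes 1. SNORD45B, a guide in RABGGTB, had 217 and 376 and then 493 and 505 FPKM (0.80, adjusted p = 0.0481). That call was lost with the spread of short RNAs (adjusted p = 0.228) and without any one of 5 libraries: it became 0.41 (adjusted p = 0.335) without interphase without IP replicate 1, and the adjusted p was 0.116 and 0.134 without interphase IP replicate 1 or 2 and 0.0645 and 0.0642 without mitosis without IP replicate 1 or 2.

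Among the lower genes SNORD97 stood out for its depth. It had 1769 and 2354 fragments without IP and 454 and 256 with IP, or 2371 and 3760.3 against 563 and 366 FPKM. The IP libraries were both below both others by a wide margin (log2 fold change -2.71, SE 0.37, adjusted p = 0.000153; 0.00167 with the spread of short RNAs; pooled ratio 0.157, interval 0.145 to 0.170). SNORD32A, a guide in RPL13A, went from 350.0 and 296 to 76.8 and 19.7 FPKM (-3.01, SE 0.51, adjusted p = 0.000583), or 38 and 27 fragments to 9 and 2. SNORD94, a U6 guide, went from 657 and 645 to 212 and 101 FPKM (-2.14, SE 0.61, adjusted p = 0.0108), a call lost without interphase IP replicate 2 (-1.61, adjusted p = 0.0901) and under quantile normalization (-1.31, adjusted p = 0.115). SNORD104 went from 383 and 395 to 115 and 66.4 FPKM (-2.14, SE 0.25, adjusted p = 5e-05). In these 4 genes no IP library reached a library without IP.

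None of the 12 genes with a short locus was higher after IP in interphase, and 1, SNORD116-21, was lower (66.7 and 110.0 to 47.5 and 32.8 FPKM, -1.10, adjusted p = 0.0113; 0.11 with the spread of short RNAs). The others were SNORD113-4 at 0.96, SNORD114-1 at -0.23, SNORD114-3 at 0.61, SNORD114-10 at 1.50, SNORD114-28 at 0.35, SNORD116-14 at 0.28, SNORD116-27 at -0.61, SNORD89 at -0.97, SNORD13 at -0.95, SNORD3A at -0.53 and SNORD3C at -0.08 on the log2 scale. Of the 7 rRNA processing genes 1 passed as higher, SNORD14B (0 with that spread), beside 37.6% of all rows. Their median was -0.54 and turned to 0.14 under quantile normalization. Among the hosts 21 of 35 were lower after IP and 8 higher (37% and 37.6% of all rows), with a median of -1.17 over the 35 hosts and -0.54 over their 60 snoRNAs. In 6 pairs both were lower. The difference between hosts and snoRNAs was not tested, and the replicates of the snoRNAs spread more widely.

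In interphase IP the 2 replicates differed with the length of the snoRNA. Replicate 1 exceeded replicate 2 in 15 of the 17 genes of at least 100 nt, by a median of 1.79 on the log2 scale, and in 33 of the 50 shorter genes, by a median of 0.44. The difference over other rows was -0.009. SNORD118 had 872 and 136 FPKM in the 2 libraries, SNORD13 228 and 30.02 FPKM, SNORD10 1326 and 216 FPKM and SNORD22 2681 and 772 FPKM. In each of these the replicate 1 value was above both libraries without IP and the replicate 2 value below both, so their direction rests on which library is read. Of the 17 genes of at least 100 nt, both pairs of like-numbered libraries were lower after IP in 4 and higher in 1. In the other groups the median for the genes of at least 100 nt was 0.025 in interphase without IP, 0.67 in mitosis without IP and 0.96 in mitosis IP. The part of this length dependence in the comparisons was not tested.

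**Figure D5:**
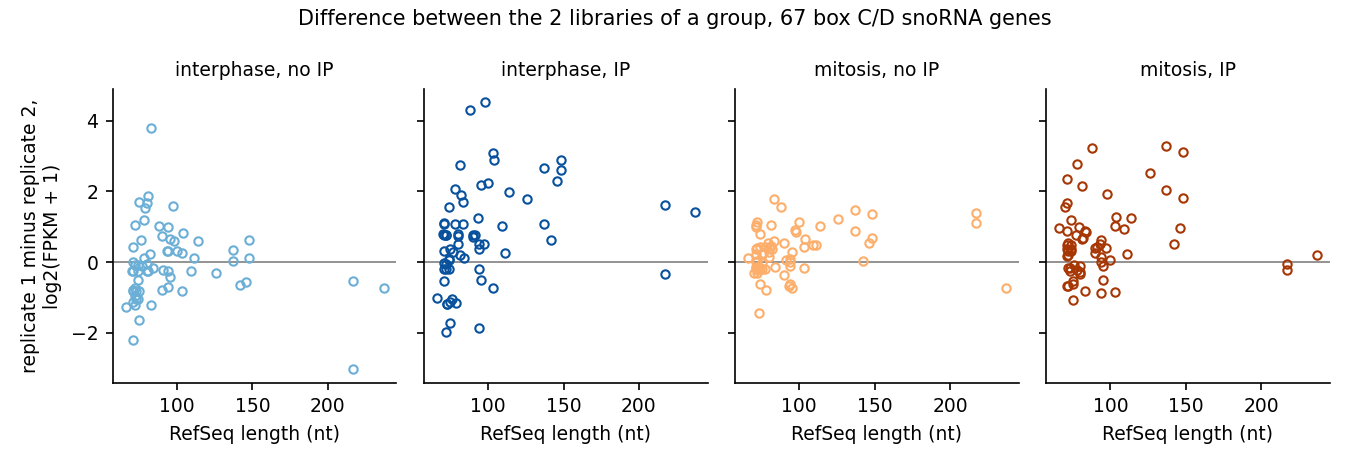
Replicate 1 minus replicate 2 on the log2(FPKM + 1) scale (vertical axis) against RefSeq length in nt, for the 67 genes in each group of 2 libraries. In interphase IP most genes of at least 100 nt lie above 0, with a median of 1.79, against 0.025 in interphase without IP.

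In mitosis the genes were mostly lower after IP than without it. Of the 67 genes 28 were lower (41.8%, against 31.7% of all rows) and 3 higher (4.48%, against 32.8% of all rows), with a median of -1.21 beside 0.005 over all rows. Both IP libraries lay below both others in 45 genes (40.1% of all rows) and above them in 9 (41.4%). With the spread of short RNAs 18 were lower and 1 was higher. Without mitosis without IP replicate 1, 17 were lower and 1 higher, and quantile normalization gave 21 lower and 8 higher with a median of -0.61. The pairs of like-numbered libraries had medians of -1.15 and -1.27. Lower values after IP also appeared in the 104 rows of H/ACA snoRNAs and scaRNAs. Of these 60 were lower and 1 higher, with a median of -1.49 (40 and 0 with the spread of short RNAs). The difference between the classes was not tested.

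SNORD102, a large-subunit guide in RPL21, fell furthest. It had 632 and 737 FPKM without IP (30 and 44 fragments) and 28.4 and 45.8 FPKM with IP (1 and 3 fragments). The groups lay far apart (log2 fold change -4.20, SE 0.31, adjusted p = 1.14e-05; 0.000189 with the spread of short RNAs), and the pooled ratio was 0.0575 with an interval of 0.0153 to 0.154. SNORD84, hosted by DDX39B, went from 17 and 16 fragments to 4 and 1, or 232 and 174 to 73.6 and 9.89 FPKM (-2.82, SE 0.78, adjusted p = 0.0116), a call lost without mitosis without IP replicate 1 (-2.61, adjusted p = 0.0548). The GAS5 genes SNORD77 and SNORD80 went from 2628 and 3242 to 746 and 251 FPKM (-2.75, adjusted p = 0.00075) and from 1373 and 1364 to 185 and 299 FPKM (-2.54, adjusted p = 9.53e-05). Of the 6 GAS5 genes 4 were lower and none higher (31.7% and 32.8% of all rows). Their median was -2.14, and 4 were also lower with the spread of short RNAs, while GAS5 itself fell by 0.77.

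SNORD17, a guide in an intron of SNX5 and the longest of the 67, had 1867 and 3916 fragments without IP and 447 and 723 with IP, or 918 and 1529.7 to 296 and 258 FPKM (-2.10, SE 0.45, adjusted p = 0.00295). SNORD97 went from 1837 and 1790.1 to 770.3 and 542 FPKM (-1.49, SE 0.37, adjusted p = 0.00713), lower after IP in mitosis as in interphase. SNORD36A fell from 1707 and 1289 to 256 and 290.2 FPKM (-2.44, adjusted p = 0.000312). In each of the 3 the libraries of the groups did not overlap. SNORD22 went from 14745 and 6298 to 5509 and 964 FPKM and did not pass (-2.06, SE 0.95, adjusted p = 0.085). The 15 genes with at least 10 fragments in every library had 5 lower and 0 higher, beside 31.7% and 32.8% of all rows. With the spread of short RNAs these counts were 4 and 0. Their median was -1.38, which turned to 0.19 under quantile normalization.

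Higher after IP in mitosis were SNORD116-14, SNORD114-14 and SNORD1C. SNORD116-14 rose from 23.8 and 23.7 FPKM (4 and 5 fragments) to 80.3 and 51.8 FPKM (10 and 12 fragments). The groups did not overlap (log2 fold change 1.41, SE 0.20, adjusted p = 0.000324; 0.0392 with the spread of short RNAs), and the pooled ratio was 2.60 with an interval of 1.15 to 6.42. SNORD114-14 rose from 325 and 373 to 681 and 484 FPKM (0.72, adjusted p = 0.0119). Its call was lost with the spread of short RNAs (adjusted p = 0.241), without mitosis without IP replicate 1 (0.62, adjusted p = 0.0855) and without mitosis IP replicate 1 (0.47, adjusted p = 0.0721). SNORD1C, a guide in SNHG16, rose from 519 and 466 to 699 and 752 FPKM (0.56, adjusted p = 0.027). That call was lost with the spread of short RNAs (adjusted p = 0.359) and without any one of the 4 mitotic libraries (adjusted p from 0.0511 to 0.122).

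Of the 12 genes with a short locus, 1 was higher (SNORD116-14) and 2 were lower, with a median of -0.26, while the 55 with a longer locus had 2 higher and 26 lower and a median of -1.49. With the spread of short RNAs the counts were 1 higher and 1 lower among the short and 0 and 17 among the longer. Over all rows 32.8% were higher and 31.7% lower in the first fit. The lower ones with a short locus were SNORD3C, from 33.2 and 12.02 to 2.35 and 2.95 FPKM (-2.53, adjusted p = 0.00297), and SNORD114-28, from 320.5 and 364 to 185 and 166 FPKM (-0.96, adjusted p = 0.0047, or 0.136 with the spread of short RNAs). SNORD3A, near-identical to SNORD3C, went from 1520 and 712 to 553 and 570 FPKM and did not pass. The difference between the span classes was not tested. All 7 rRNA processing genes had values below 0, with 1 passing under both models of the spread (SNORD3C) and a median of -1.75. The U6 guides were lower in 4 of 5 genes, with a median of -1.69, and in 1 of 5 with the spread of short RNAs. Among the hosts 25 of 35 were lower and 2 higher after IP in mitosis (31.7% and 32.8% of all rows), with a median of -0.84 over the 35 hosts, and in 21 of 60 pairs the snoRNA and the host were both lower.

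The IP effect was then compared between the phases, as the log2 fold change of IP against no IP in mitosis minus that in interphase. It was lower in mitosis for 14 of the 67 genes (20.9%, against 19.9% of all rows) and higher for 2 (2.99%, against 27.2% of all rows), with a median of -0.70 beside 0.065 over all rows. With the spread of short RNAs 3 were lower and 0 higher. The median lay between -1.26 and -0.32, the values without interphase IP replicate 2 and replicate 1. The 14 lower genes are thus close to the share over all rows. Of the 104 rows of H/ACA snoRNAs and scaRNAs 2 were lower and 1 higher, with a median of -0.247 (3 and 0 with the spread of short RNAs).

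SNORD102 differed most. Its IP effect was -0.09 in interphase, where it had 54.4 and 108 FPKM without IP and 67.2 and 77.5 FPKM with IP, and -4.20 in mitosis. The difference was -4.11 (SE 0.44, adjusted p = 0.000179; 0.00294 with the spread of short RNAs). SNORD17 had 62.6 and 104 FPKM without and 280.2 and 104 FPKM with IP in interphase, an effect of 1.07, against -2.10 in mitosis, and differed by -3.17 (SE 0.63, adjusted p = 0.00362; 0.0206 with that spread). SNORD47, in GAS5, had effects of 0.31 and -1.96 and differed by -2.27 (SE 0.36, adjusted p = 0.0011; 0.0347 with that spread). These 3 genes passed under both models of the spread. The U3 copy SNORD3C passed in the first fit alone. The near-identical SNORD3A, with 9720 fragments in all against 125 for SNORD3C, did not pass. SNORD3C differed by -2.45 (SE 0.77, adjusted p = 0.0279; 0.0998 with that spread), and its call was lost without interphase without IP replicate 1 (-2.19, adjusted p = 0.0858), interphase IP replicate 1 (-1.65, adjusted p = 0.0782), mitosis without IP replicate 1 (-1.76, adjusted p = 0.0823) or mitosis IP replicate 1 (-2.34, adjusted p = 0.0665).

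SNORD116-14 and SNORD1C were the 2 genes with a higher IP effect in mitosis. SNORD116-14 had effects of 0.28 in interphase, where it had 85.5 and 65.7 FPKM after IP, and 1.41 in mitosis, a difference of 1.13 (SE 0.29, adjusted p = 0.0122; 0.238 with the spread of short RNAs; 0.0528 under quantile normalization). SNORD116-21 and SNORD116-27 also had positive differences (range over the 3 copies 0.93 to 1.18) and did not pass. SNORD1C had effects of -0.49 and 0.56, a difference of 1.05 (SE 0.27, adjusted p = 0.0111; 0.258 with that spread), lost without interphase without IP replicate 2 (0.93, adjusted p = 0.0513).

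After IP, the genes were again higher in mitosis than in interphase. Of the 67 genes 30 were higher (44.8%, against 35.8% of all rows) and 4 lower (5.97%, against 25.6% of all rows), with a median of 1.06 beside 0.083 over all rows. Both mitotic libraries lay above both interphase ones in 35 genes (44.6% of all rows) and below in 4 (34.6%). With the spread of short RNAs 25 were higher and 1 lower. The median was 1.84 without interphase IP replicate 1, 0.53 without interphase IP replicate 2 and 1.68 without mitosis IP replicate 2. The fold changes here come from the IP libraries, and those of the comparison without IP from the others. The tests of both take their spread from all 8 libraries, so they are not independent. Of the 104 rows of H/ACA snoRNAs and scaRNAs 33 were higher and 3 lower in mitosis IP, with a median of 1.05 (20 and 1 with the spread of short RNAs).

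SNORD99 led here too, with 19.2 and 11.1 FPKM in interphase IP (2 and 1 fragments) and 406 and 515 FPKM in mitosis IP (25 and 59 fragments). The groups did not overlap (log2 fold change 4.88, SE 0.46, adjusted p = 3.17e-05), and the pooled ratio was 30.9 with an interval of 10.2 to 153. SNORD110 rose from 13.4 and 30.8 to 339 and 522 FPKM (4.30, SE 0.52, adjusted p = 0.000128). SNORD12B, a large-subunit guide in ZFAS1 and counted more deeply, rose from 18 and 26 fragments to 180 and 609, or 60.6 and 101 to 1026 and 1865 FPKM (4.13, SE 0.36, adjusted p = 2.13e-05). SNORD1C rose from 54.4 and 37.6 to 699 and 752 FPKM (3.97, SE 0.19, adjusted p = 1.55e-06). All 3 ZFAS1 genes rose, as they did without IP.

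The 4 lower genes included SNORD114-21, one of the 5 genes with the highest mean FPKM. It had 6607 and 5365 FPKM in interphase IP and 2778 and 548 FPKM in mitosis IP. The groups did not overlap (-2.27, SE 0.76, adjusted p = 0.0288; 0.0343 with the spread of short RNAs). Its call was lost without mitosis IP replicate 2 (-1.10, adjusted p = 0.207), without interphase IP replicate 1 or 2 (adjusted p = 0.092 and 0.0653) and without interphase without IP replicate 2 (adjusted p = 0.0509). SNORD45B had 493 and 505 and then 278 and 149 FPKM (-1.29, adjusted p = 0.00751; 0.078 with that spread). SNORD50A (-1.06, adjusted p = 0.028) and SNORD102 (-0.98, adjusted p = 0.0227) passed only without that spread (0.149 and 0.162) and rest on 10 against 5 and 8 against 4 pooled fragments. Without mitosis IP replicate 1 they were -0.52 (adjusted p = 0.192) and -0.64 (adjusted p = 0.149), and both calls were also lost without interphase IP replicate 1 (adjusted p = 0.144 and 0.0568) or replicate 2 (adjusted p = 0.053 and 0.109). The 7 rRNA processing genes had 1 higher and none lower (35.8% and 25.6% of all rows), with a median of 0.85. The higher one was SNORD14B (0.92, adjusted p = 0.00867, or 0.169 with that spread). SNORD4A had 1042 and 1085 and then 5285 and 4628 FPKM (2.22, adjusted p = 0.00112).

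The genes for the proteins of the particle and for its assembly, transport and trimming were fixed as a list of 24, all in the table. Without IP, 11 were higher in mitosis and 3 lower (26.2% and 25.5% of all rows), with a median of 0.27. Of the 4 core proteins NOP58 rose from 19.3 and 18.7 to 60.3 and 60.4 FPKM (log2 fold change 1.62, SE 0.10, adjusted p = 9.70e-06) and SNU13, which binds the RNA first, fell from 59.3 and 56.6 to 32.8 and 34.9 FPKM (-0.76, SE 0.14, adjusted p = 0.00262). Fibrillarin (FBL) had 53.5 and 58.2 and 52.6 and 52.95 FPKM (-0.08, adjusted p = 0.568) and NOP56 0.07. Among the 9 assembly factors RUVBL1 (0.64), RUVBL2 (0.64) and ZNHIT6 (0.39) rose, and PIH1D1 (-0.73) and ZNHIT3 (-0.56) fell. Among transport and cap genes 4 of 6 rose, led by the export receptor XPO1 (1.15) and the nucleolar chaperone NOLC1 (0.75). Of the 5 trimming genes the exosome nucleases DIS3 (1.21) and EXOSC10 (0.79) and the deadenylase PARN (0.35) rose.

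In interphase 11 of the 24 were higher after IP and 9 lower, near the shares over all rows (37.6% and 37%). In mitosis 7 were higher and 16 lower (32.8% and 31.7% of all rows). All 3 core genes that passed in interphase were lower after IP, namely FBL (-2.18), SNU13 (-1.65) and NOP56 (-1.46), while NOP58 was at 0.09. In mitosis all 4 were lower after IP: FBL at -1.05, SNU13 at -0.77, NOP56 at -1.86 and NOP58 at -1.23. XPO1 was higher after IP in both phases (1.11 and 1.50). The IP effect differed between phases in 16 genes, 5 higher and 11 lower in mitosis (27.2% and 19.9% of all rows), among them PIH1D1 (1.80), FBL (1.13), DIS3 (-2.18) and the cap methylase TGS1 (-2.01). Between the IP libraries of the phases, 9 of the 24 were higher in mitosis (35.8% of all rows) and 10 lower (25.6%).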

How the data were processed

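RNA of hTERT-RPE1 cells was sequenced in 8 libraries, 2 for each of 4 groups. The authors deposited FPKM values per gene for each library on hg38, and TopHat and StringTie are named, without versions, per the submitters' processing notes. Per the file headers, further columns hold the authors' ratios of these FPKM values, which matched quotients of the FPKM columns and were otherwise not used. A second deposited table, of noncoding RNAs on another build, was not used here. A depth per library is given only relative to the others, from the FPKM of 1 fragment.

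Values were taken as log2(FPKM + 1) with no filter, and limma 3.58.1 in R 4.3.3 (trended spread) was fitted to all 13471 rows with 1 coefficient for each of the 4 groups. P-values were adjusted over all rows by Benjamini-Hochberg, and a call needs an adjusted p below 0.05. The script was tested on simulated data. The 67 genes, the lists and the tests were chosen with earlier results of these data known. Genes named with values were the 12 with a locus of at most 300 bp, U3, U8, U13, U14 and U22, the 4 called genes with the largest change in each direction of each comparison whose replicate pairs agree in sign, the 5 with the highest mean FPKM, the families of listed hosts, and the 24 genes of the particle. Alternatives were another pseudocount (0.1), a mean FPKM of at least 1, quantile normalization, median centring, a replicate block, only the groups compared, no trend, other span limits and each library left out. One host gene is not reported here. A separate spread for RNAs of at most 300 nt was chosen after seeing the data.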

Additional observations from a re-analysis of the deposited data

Results flagged for a closer look

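For 16 of the 67 genes the effect of IP differed between mitosis and interphase by limma's test of the difference itself, 14 lower in mitosis (20.9%, against 19.9% of all rows) and 2 higher (2.99%, against 27.2% of all rows), and the 6 named by size are given here. SNORD102 (-4.11), SNORD17 (-3.17), SNORD3C (-2.45) and SNORD47 (-2.27) had a lower effect in mitosis on the log2 scale. SNORD116-14 (1.13) and SNORD1C (1.05) had a higher one. SNORD3A, near-identical to SNORD3C and with far more fragments, did not pass. With a separate spread for short RNAs the adjusted p was 0.00294 for SNORD102, 0.0206 for SNORD17 and 0.0347 for SNORD47, and it was 0.0998 for SNORD3C, 0.238 for SNORD116-14 and 0.258 for SNORD1C.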

How the results depend on the processing

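With a separate spread for short RNAs, limma called 9 of the 67 genes in IP against no IP in interphase (17 otherwise), 19 in mitosis (31 otherwise) and 3 for the difference between phases (16 otherwise). The labels share only replicate numbers, and deviations of like-numbered libraries correlated at 0.088 to 0.53 over all rows. With the replicate number as a block, calls rose to 26 in interphase (8 higher, 18 lower), 42 in mitosis, 22 for the difference, 53 for mitosis against interphase without IP and 37 with IP. Leaving out each library gave 17 to 24 calls in interphase, 18 to 39 in mitosis (18 without mitosis without IP replicate 1), 14 to 23 for the difference, and 34 to 47 and 30 to 40 for the phases without and with IP. These fits assume that the lone library of a group varies like the others. The median of IP against no IP in interphase, -0.54, ranged from -0.567 to 0.016 over the leave-outs, the latter without interphase IP replicate 2; the cause was not tested. A span limit of 500 bp gave 2 calls in interphase against 1 at 300 bp, since it adds SNORD104. Of the 36 calls named by size, 0 reversed under any alternative, 13 were lost with the separate spread, 3 under quantile normalization, and 3 to 7 with a library left out. Few fragments limit most genes: 47 of 62 had under 10 in some library.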
